A study of Homo sapiens with 54 samples.

Results

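The subtelomeric regions of the autosomes are the stretches next to the chromosome ends. They were taken here as all ATAC-seq peaks on chromosomes 1 to 22 that lay within 3 Mb of the outermost peak of a chromosome end, with the outermost peak found over all 18 peak lists. The short arms of chromosomes 13, 14, 15, 21 and 22 were left out, so 39 ends entered, together 117 Mb or 4.18% of the autosomal span between outermost peaks. They held 115938 of 2112650 autosomal peaks, which merged over the lists into 11703 of 224932 regions. No measured level chose the peaks. The 3 Mb limit cut through a continuous stretch of peaks: a list had 354 to 687 peaks (median 504.5) between 2.75 and 3 Mb and 414 to 756 peaks (median 551) between 3 and 3.25 Mb.

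A human chromosome ends in telomere repeats bound by the shelterin proteins, and the adjoining subtelomere mixes recent segmental duplications with ordinary genes. The ends of many chromosomes are rich in genes, GC bases and CpG islands, while others begin with long, sparsely spaced genes, many of them used by neurons. ATAC-seq measures accessibility: the Tn5 transposase cuts and tags DNA that nucleosomes leave open, and a peak is a stretch with more cuts than its surroundings. Active promoters are usually open, and so are enhancers. Cisplatin is a platinum drug that crosslinks neighbouring bases of DNA, which blocks replication and transcription.

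The study followed the breast cancer line MDA-MB-231 and the prostate cancer line PC3, both established from metastatic disease. In each line the groups were cells that had survived cisplatin and were taken 1 day after the drug was removed (day 1), survivors taken 10 days after removal (day 10), and untreated control cells. The labels give no dose, and each group is a bulk population of 1 line, in which a site open in fewer cells and a site less open in each cell cannot be told apart. All 6 groups were made in biological triplicate, every replicate was divided into 3 technical parts ahead of the transposase reaction, and 1 peak list was used for each biological replicate, so n is 3 lists per group throughout. The lists hold no read counts, so the depth behind a list is unknown. In every group the replicate 1 list held the most subtelomeric peaks, and in all groups but PC3 control these were also the narrowest. The gene HOXB13, a prostate lineage marker, had 8.91 to 12.2 kb of scaled peak cover in the PC3 survivor lists and 11.5 to 13.8 kb in the PC3 control lists, against at most 1.53 kb in any MDA-MB-231 list. The epithelial marker CLDN7 was at 0 in all lists, and the leukocyte marker PTPRC reached 0.594 kb at most.

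Promoters that opened or closed in survivors of a line at both times are shown first, all 5 that opened and 9 of the 11 that closed. Each is the 250 bases before a gene's start, 5′ to 3′ on the gene's strand, from RefSeq (GRCh38.p14), and the capitals mark GC boxes (GGGCGG or its reverse complement CCGCCC), the motif that SP-family activators bind. A promoter was counted as open in a list when a peak overlapped the 300 bases that run from 250 before to 50 after the start. Only the first listed window of each gene was used, so another start of the same gene may differ. The splits of peaks and regions by promoter further below used all 21156 autosomal windows. The first 3 were open in all 6 MDA-MB-231 survivor lists and in no MDA-MB-231 control list, and they were closed in all PC3 lists. PAEP encodes the secreted glycoprotein glycodelin, SPON2 an extracellular matrix protein and KRTAP12-2 a hair keratin-associated protein. The next 2 were open in all 6 PC3 survivor lists and in no PC3 control list: PDYN encodes the opioid peptide precursor prodynorphin, and TRIML2 a TRIM-like protein whose promoter was also open in all 9 MDA-MB-231 lists.
KRTAP12-2 (chr21:44666928-44667177, minus strand): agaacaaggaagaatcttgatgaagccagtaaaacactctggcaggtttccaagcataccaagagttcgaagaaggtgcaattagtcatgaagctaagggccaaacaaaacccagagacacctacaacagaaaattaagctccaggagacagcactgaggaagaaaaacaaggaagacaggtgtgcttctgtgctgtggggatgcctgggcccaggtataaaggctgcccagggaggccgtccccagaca
PAEP (chr9:135561506-135561755, plus strand): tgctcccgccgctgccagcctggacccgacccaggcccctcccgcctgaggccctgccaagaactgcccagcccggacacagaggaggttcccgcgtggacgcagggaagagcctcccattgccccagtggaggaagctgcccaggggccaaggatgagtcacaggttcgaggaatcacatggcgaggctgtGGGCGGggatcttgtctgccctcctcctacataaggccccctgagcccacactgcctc
SPON2 (chr4:1208845-1209094, minus strand): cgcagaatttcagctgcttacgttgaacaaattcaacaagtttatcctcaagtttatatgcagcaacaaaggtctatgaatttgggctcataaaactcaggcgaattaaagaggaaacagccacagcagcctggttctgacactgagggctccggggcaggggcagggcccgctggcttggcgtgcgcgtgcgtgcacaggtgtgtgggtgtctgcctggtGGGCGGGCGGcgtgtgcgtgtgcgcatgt
PDYN (chr20:1994286-1994535, minus strand): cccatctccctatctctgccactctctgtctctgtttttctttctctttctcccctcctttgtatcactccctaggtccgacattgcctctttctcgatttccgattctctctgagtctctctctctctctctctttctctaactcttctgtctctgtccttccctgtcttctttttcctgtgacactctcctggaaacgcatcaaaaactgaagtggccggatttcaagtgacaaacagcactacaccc
TRIML2 (chr4:188109604-188109853, minus strand): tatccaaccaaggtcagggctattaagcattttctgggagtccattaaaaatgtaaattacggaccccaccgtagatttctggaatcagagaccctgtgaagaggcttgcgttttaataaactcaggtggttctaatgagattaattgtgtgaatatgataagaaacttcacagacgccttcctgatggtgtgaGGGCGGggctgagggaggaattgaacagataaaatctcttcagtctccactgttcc

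The reverse pattern was seen at the following promoters. SIGIRR, a receptor that damps interleukin-1 and Toll-like signalling, and TCEA2, a transcription elongation factor, were open in all 3 MDA-MB-231 control lists and in none of the 6 survivor lists of that line. DPYSL4 (a dihydropyrimidinase-like protein of the nervous system), PDGFA (a platelet-derived growth factor ligand), PFKP (the platelet form of the glycolytic enzyme phosphofructokinase) and SH3BP2 (a signalling adaptor) were open in all 3 PC3 control lists and in none of the 6 PC3 survivor lists. The same held for DUSP28 (a dual-specificity phosphatase), PIGQ (a subunit of the enzyme that starts GPI anchor synthesis) and ZNF556 (a zinc finger protein). PDGFA, PFKP, PIGQ and SH3BP2 were at the same time open in all 9 MDA-MB-231 lists.
SIGIRR (chr11:417398-417647, minus strand): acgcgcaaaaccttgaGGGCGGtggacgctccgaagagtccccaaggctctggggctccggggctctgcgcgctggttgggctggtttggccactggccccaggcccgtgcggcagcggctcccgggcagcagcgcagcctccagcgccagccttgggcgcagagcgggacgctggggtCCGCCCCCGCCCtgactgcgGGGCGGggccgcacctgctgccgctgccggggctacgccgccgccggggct
TCEA2 (chr20:64056722-64056971, plus strand): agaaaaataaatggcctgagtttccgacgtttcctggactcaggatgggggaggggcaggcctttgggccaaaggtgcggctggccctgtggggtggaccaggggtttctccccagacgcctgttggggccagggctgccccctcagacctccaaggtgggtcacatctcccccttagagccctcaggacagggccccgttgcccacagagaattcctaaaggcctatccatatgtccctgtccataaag
DPYSL4 (chr10:132186698-132186947, plus strand): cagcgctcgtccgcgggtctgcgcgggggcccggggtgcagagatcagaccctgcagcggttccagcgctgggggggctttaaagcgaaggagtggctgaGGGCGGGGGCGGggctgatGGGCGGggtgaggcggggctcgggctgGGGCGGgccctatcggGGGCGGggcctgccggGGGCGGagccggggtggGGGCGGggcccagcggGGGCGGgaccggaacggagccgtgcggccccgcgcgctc
PDGFA (chr7:520227-520476, minus strand): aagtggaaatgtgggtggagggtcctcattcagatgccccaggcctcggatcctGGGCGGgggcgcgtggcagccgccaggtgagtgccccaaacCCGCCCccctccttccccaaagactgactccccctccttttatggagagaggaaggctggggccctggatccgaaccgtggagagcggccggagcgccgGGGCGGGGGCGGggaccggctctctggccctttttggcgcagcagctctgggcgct
PFKP (chr10:3067720-3067969, plus strand): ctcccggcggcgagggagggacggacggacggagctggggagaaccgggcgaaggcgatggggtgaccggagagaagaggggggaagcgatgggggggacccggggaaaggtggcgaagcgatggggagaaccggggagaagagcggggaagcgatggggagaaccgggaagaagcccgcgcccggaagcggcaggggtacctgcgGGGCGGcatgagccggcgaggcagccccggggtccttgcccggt
SH3BP2 (chr4:2792835-2793084, plus strand): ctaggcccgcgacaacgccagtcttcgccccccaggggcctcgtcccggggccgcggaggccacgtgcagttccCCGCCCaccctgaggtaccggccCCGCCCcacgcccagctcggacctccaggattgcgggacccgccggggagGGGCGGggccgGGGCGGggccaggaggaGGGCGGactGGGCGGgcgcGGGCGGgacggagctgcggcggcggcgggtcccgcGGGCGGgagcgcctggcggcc
DUSP28 (chr2:240559804-240560053, plus strand): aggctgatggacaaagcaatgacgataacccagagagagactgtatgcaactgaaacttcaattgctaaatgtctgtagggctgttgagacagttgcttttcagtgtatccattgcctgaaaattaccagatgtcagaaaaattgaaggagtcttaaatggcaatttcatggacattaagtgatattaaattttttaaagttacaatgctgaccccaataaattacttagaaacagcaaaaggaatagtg
PIGQ (chr16:569718-569967, plus strand): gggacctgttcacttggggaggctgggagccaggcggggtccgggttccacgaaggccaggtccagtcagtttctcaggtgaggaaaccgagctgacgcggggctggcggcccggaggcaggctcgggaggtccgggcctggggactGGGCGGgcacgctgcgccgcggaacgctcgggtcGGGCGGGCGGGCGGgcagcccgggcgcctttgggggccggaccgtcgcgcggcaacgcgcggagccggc
ZNF556 (chr19:2867085-2867334, plus strand): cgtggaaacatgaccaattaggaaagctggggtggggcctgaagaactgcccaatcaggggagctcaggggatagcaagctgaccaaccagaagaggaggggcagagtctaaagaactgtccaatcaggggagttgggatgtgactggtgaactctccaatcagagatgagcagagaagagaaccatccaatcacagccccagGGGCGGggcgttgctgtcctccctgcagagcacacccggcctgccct

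The sequences vary in base composition. The promoters opened in survivors had 2 to 14 CpG dinucleotides and at most 2 GC boxes, with a GC content of 43.2% in TRIML2 to 67.2% in PAEP. Of those closed, SH3BP2 had 35 CpGs, 8 GC boxes and 82.0% GC, and DPYSL4 had 31 CpGs, 8 GC boxes and 80.0% GC. TCEA2, DUSP28 and ZNF556, also closed, had 5, 1 and 4 CpGs, at most 1 GC box and 60.0%, 36.0% and 57.2% GC, within or below the values of those opened. With so few promoters this is a description only. From the sequence table, which holds none of chromosome 8, 1279 subtelomeric promoters were used, 1 per gene. Their median 300-base window had 69.3% GC and 31 CpGs, and 70.2% held a GC box. The 13822 other autosomal promoters had a median of 62.3% GC and 22 CpGs, and 57.8% held a GC box. The telomere repeat unit TTAGGG was in 7.58% of subtelomeric and 8.83% of other windows, and the AP-1 motif TGANTCA in 3.91% and 5.87%, with both strands searched. Each motif was searched on its own, so matches can overlap. The 638 subtelomeric promoters open in all 18 lists (49.9%) had a median of 36 CpGs, and 84.2% held a GC box, whereas in the 391 open in no list (30.6%) the median was 12 CpGs and 48.6% held one.

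Counted over all of these promoters, the open share at the chromosome ends was lower relative to that of the other promoters in survivors of both lines than in control cells. At day 1 the subtelomeric shares overlapped those of control cells while the mean of the other promoters was higher than in control cells, and at day 10 both means were lower. In MDA-MB-231, 64.6%, 62.9% and 63.1% of subtelomeric promoters were open in the day 1 lists, 63.1%, 61.5% and 62.4% in the day 10 lists, and 64.2%, 63.4% and 64.7% in the control lists. In PC3, the shares were 59.3%, 59.2% and 58.7% at day 1, 56.1%, 55.7% and 54.4% at day 10, against 59.9%, 58.8% and 59.2% in control cells. The other autosomal promoters averaged 63.4% open at day 1, 62.6% at day 10 and 62.8% in control cells for MDA-MB-231, and 62.1%, 60.1% and 61.1% in PC3. Set against those promoters of the same list, the subtelomeric ones were 0.095 percentage points higher at day 1, -0.21 points at day 10 and 1.33 points higher in control cells of MDA-MB-231. The same difference in PC3 was -2.99 points at day 1, -4.72 points at day 10 and -1.79 points in control cells, and in neither line did a survivor list overlap the control lists. Averaged over both lines the difference fell by 1.22 points at day 1 and by 2.24 points at day 10 against control (two-sided exact permutation test within lines, p = 0.005 each, the smallest that 400 relabellings allow, adjusted p = 0.0075 over 3 comparisons). From day 1 to day 10 it fell by 1.02 points (exact p = 0.015, adjusted p = 0.015). This measure was chosen after the data had been seen. When each list was cut to its 50000 peaks of largest area, the difference between days 10 and 1 was -1.78 points and no longer passed (adjusted p = 0.09).

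Single promoters that switched in 1 line and time were few. In MDA-MB-231, 6 subtelomeric promoters opened at day 1 (open in 3 of 3 survivor lists and 0 of 3 control lists), 0.469% of 1279 beside 0.55% of all 15101 promoters, and 5 closed, 0.391% beside 0.113%. At day 10, 3 opened (0.235% beside 0.563%) and 6 closed (0.469% beside 0.344%). In PC3, 3 opened at day 1 (0.235% beside 0.404%) and 7 closed (0.547% beside 0.126%). At day 10, 4 opened (0.313% beside 0.616%) and 24 closed (1.88% beside 0.987%). The 24 included the zinc finger genes ZNF556, ZNF587, ZNF587B, ZNF772 and ZNF84, the DNA glycosylase gene MPG, the histone methyltransferase gene NSD2 and the inositol phosphatase gene INPP5E.

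Survivor lists held more subtelomeric peaks on average than control lists, as they did over all autosomes. MDA-MB-231 had 8657, 6154 and 7348 at day 1, 7771, 6011 and 6884 at day 10, against 6847, 5247 and 5790 in control cells. PC3 had 7771, 5337 and 6279 at day 1, 7683, 6292 and 6655 at day 10, against 5549, 4875 and 4788 in control cells. The autosomal total averaged 115105 at day 1, 114142 at day 10 and 87301 in control cells of MDA-MB-231, and in the same order for PC3 133978, 145535 and 108155. The ends held 6.40% of these peaks at day 1, 6.04% at day 10 and 6.81% in control cells of MDA-MB-231, and 4.82%, 4.74% and 4.69% in PC3, with overlapping lists in all 4 comparisons. In peak number the groups overlap in MDA-MB-231 at both times and in PC3 at day 1, and only the PC3 day 10 lists all lie above their control lists. The mean log2 difference over both lines was 0.32 at day 1 (exact p = 0.025) and 0.32 at day 10 (exact p = 0.015), and neither passed Benjamini-Hochberg adjustment over the 15 measures and comparisons tested (adjusted p = 0.105).

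Covered length followed peak number in PC3 at day 1 and less so elsewhere, with log2 differences from control of 0.0027 at day 1 and -0.23 at day 10 for MDA-MB-231, against 0.30 and 0.19 for PC3. Subtelomeric peaks covered 5.71, 5.48 and 6.05 Mb at day 1, 5.01, 4.61 and 5.1 Mb at day 10, against 5.08, 5.61 and 6.61 Mb in control cells of MDA-MB-231. In PC3 they covered 4.47, 4.70 and 4.75 Mb at day 1, 4.00, 4.08 and 4.91 Mb at day 10, against 4.24, 3.55 and 3.59 Mb in control cells. As a share of the autosomal cover of the same list, MDA-MB-231 had 8.68%, 8.07% and 8.23% at day 1, 8.79%, 7.89% and 7.34% at day 10, against 9.56%, 8.72% and 9.53% in control cells. All 3 day 1 lists lay below the control lists, and 1 of the 3 day 10 lists lay among them. In PC3 the shares overlapped, with 5.94% to 6.04% at day 1, 5.18% to 6.12% at day 10 and 5.50% to 6.52% in control cells. The mean change over both lines was -0.46 points at day 1 (exact p = 0.13) and -0.76 points at day 10 (exact p = 0.06). Of the 15 tests none passed adjustment, with 0.105 as the lowest adjusted p, and 5 had an unadjusted exact p under 0.05. None of the 10 tests of whether a change differed between the lines passed either (lowest adjusted p 0.233).

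**Figure D1:**
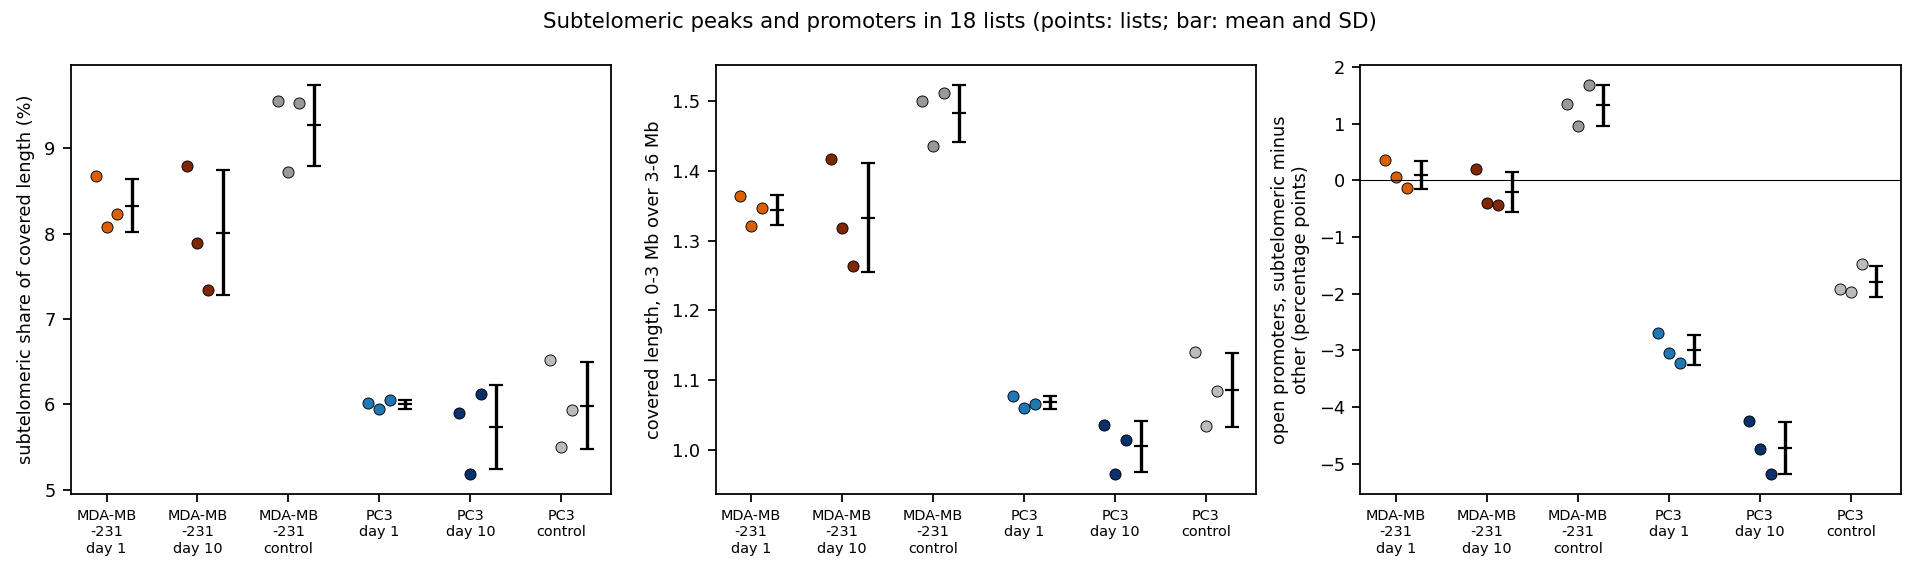
Subtelomeric share of autosomal peak cover, ratio of cover to the neighbouring band, and open subtelomeric minus other promoters (percentage points), in the 18 lists. Each point is a list, grouped by line as day 1, day 10 and control, with the group mean and SD beside it. The MDA-MB-231 day 1 shares of cover (8.07% to 8.68%) lie below the control shares (8.72% to 9.56%), and the PC3 groups overlap.

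The density of peak cover next to the ends was set against the neighbouring 3 Mb, from 3 to 6 Mb inwards. MDA-MB-231 ends had 1.36, 1.32 and 1.35 times the cover of the neighbouring band at day 1, 1.42, 1.32 and 1.26 times at day 10, and 1.5, 1.44 and 1.51 times in control cells. In PC3 the ratio was 1.08, 1.06 and 1.07 at day 1, 1.04, 0.965 and 1.01 at day 10, against 1.14, 1.03 and 1.08 in control cells. Every MDA-MB-231 survivor list was below every control list of that line. Over both lines the log2 of this ratio differed from control by -0.083 at day 1 (exact p = 0.035) and by -0.134 at day 10 (exact p = 0.01), adjusted p = 0.105 for both. Without the second PC3 control list the differences were -0.100 and -0.151, and both then passed (adjusted p = 0.0375).

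The subtelomeric peaks were also split by promoter, a split added after seeing the data. Among peaks that touched a promoter window, the ends held 8.30% at day 1, 8.27% at day 10 and 8.47% in control cells of MDA-MB-231, and 7.91%, 7.65% and 8.07% in PC3. That share fell by 0.16 points at day 1 and by 0.30 points at day 10 against control (exact permutation test, adjusted p = 0.019 for both), and by 0.14 points between days 1 and 10 (adjusted p = 0.044). The mean number of promoter peaks at the ends was not lower at day 1. It was 821 at day 1, 808 at day 10 and 820 in control cells of MDA-MB-231, and 766, 725 and 760 in PC3. Among peaks away from promoters the ends held 6.23%, 5.82% and 6.61% in MDA-MB-231 cells and 4.55%, 4.52% and 4.37% in PC3, in the same order of groups. The mean share was thus lower in MDA-MB-231 survivors in both classes of peak, and in PC3 survivors among promoter peaks only. No change in the share away from promoters passed adjustment.

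Peak cover was densest shortly inside the ends. Between 0.5 and 1 Mb the cover per Mb was 2.45 ± 0.13 times the autosome mean at day 1, 2.36 ± 0.23 times at day 10 and 2.84 ± 0.18 times in control cells of MDA-MB-231 (SD, n = 3). In PC3 it was 1.65 ± 0.01, 1.51 ± 0.12 and 1.69 ± 0.15 times. Protein-coding genes, from RefSeq, numbered 21.5 per Mb in the outermost 0.1 Mb, 20.0 per Mb between 0.5 and 1 Mb and 9.87 per Mb between 2 and 3 Mb, against an autosome mean of 6.84 per Mb. The ends held 1725 of 19126 autosomal protein-coding genes on their 4.18% of the autosomal span.

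**Figure D2:**
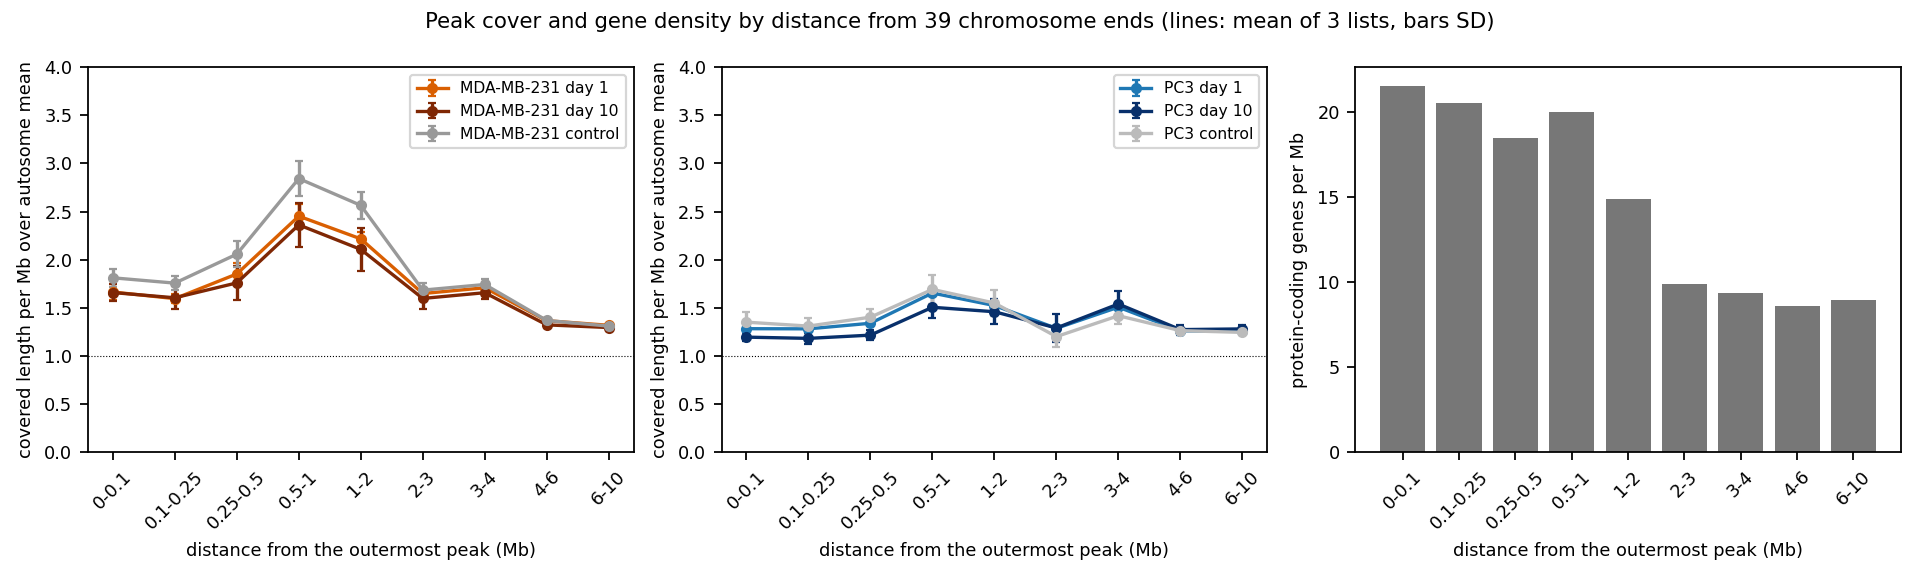
Peak cover per Mb divided by the autosome mean of the same list (left and middle, mean of 3 lists with SD, for MDA-MB-231 and PC3) and protein-coding genes per Mb (right), both by distance in Mb from the outermost peak of 39 ends. Cover is highest between 0.5 and 1 Mb, where MDA-MB-231 control cells reach 2.84 times and PC3 control cells 1.69 times the mean.

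The lines differed more than the states did. Over the 9 lists of each line, subtelomeric peaks took 5.90% of autosomal cover in PC3 and 8.54% in MDA-MB-231, a difference of -2.63 points (two-sided exact permutation test within states, p = 0.00025, the smallest that 8000 relabellings allow). Of the 11703 merged regions, 2738 were seen in PC3 lists only (23.4%, beside 35.2% of all autosomal regions) and 3300 in MDA-MB-231 lists only (28.2%, beside 17.7%). Another 2569 were in all 18 lists (22.0%, beside 19.9%) and 1736 in 1 list (14.8%, beside 13.8%). The widest regions in all lists included 1 each at RECQL4 (a DNA helicase) and AHNAK2 (a giant scaffold protein) and 2 at PLEC, the gene of the cytoskeletal linker plectin. Of these, all but the AHNAK2 region, at chr14:104966956-104978614, were on 8q. By end, limma (Benjamini-Hochberg adjustment over 888 windows of 3 Mb) called 9 of 39 ends higher and 27 lower in PC3, beside 47.3% of all windows higher and 40.1% lower.

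The ends did not move together after cisplatin. For each of the 888 windows of 3 Mb laid inwards from the ends, covered length was scaled to the mean list total, and log2(covered length + 5000 bp) was fitted with limma over all 18 lists. MDA-MB-231 had 5 of 39 ends that rose at day 1 (3p, 5q, 6q, 9p and 11q; 20.4% of all windows rose) and 12 that fell (7.21% of all windows fell): 1p, 3q, 4p, 7p, 9q, 11p, 16p, 17q, 19p, 19q, 20q and 22q. At day 10, 6 rose (those 5 and 18p; 32.3% of all windows) and 17 fell (11.4%). PC3 had 0 ends that rose and 0 that fell by limma at day 1 (3.15% of all windows rose and 0.788% fell), with 2 higher and 4 lower at an unadjusted p under 0.05. At day 10, 4 rose (2p, 3p, 6q and 11q; 19.7%) and 13 fell (26.7%): 3q, 4p, 6p, 7p, 9q, 11p, 12p, 15q, 16p, 17p, 17q, 19p and 22q. In day 10 survivors of both lines 3p, 6q and 11q rose, 3 of the 4 ends that rose in PC3 and of the 6 in MDA-MB-231. The falling ends shared 12, of 13 in PC3 and of 17 in MDA-MB-231. Survivor and control lists did not overlap at 19 MDA-MB-231 ends at day 1 (47.5% of all windows did not) and 24 at day 10 (52.4%), and at 7 PC3 ends at day 1 (29.5%) and 17 at day 10 (49.9%).

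The MDA-MB-231 day 1 counts were the least stable. Leaving out 1 list at a time left 2 to 6 ends higher and 4 to 12 lower. There were 4 lower ends without the second or the third day 1 list or without the first or the third control list, and 2 or 3 higher ends without the first day 1 list or the second or the third control list. In PC3 at day 10, 3 to 7 ends were higher, with 7 when the second day 10 list was left out. With the replicate number as a block, 10 ends were higher and 15 lower in MDA-MB-231 at day 1. With no scaling to the list total, the median of all windows shifted by 0.14 at day 1 in MDA-MB-231, and by 0.26 and 0.23 at days 1 and 10 in PC3. Unscaled, 7 ends were higher and 0 lower in MDA-MB-231 at day 1 and 4 and 8 at day 10. In PC3 they were 18 and 0 at day 1 and 12 and 1 at day 10. Apart from that 1 end, no lower call of PC3, or of MDA-MB-231 at day 1, passed without scaling. Those other lower calls hold relative to the rest of the same list only.

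The end of 11q rose most in PC3. Its scaled cover was 31.2, 27.0 and 36.1 kb at day 1, 65.6, 52.7 and 80.9 kb at day 10, against 25.3, 22.4 and 23.5 kb in PC3 control cells. In MDA-MB-231 it was 55.2, 52.2 and 56.9 kb at day 1, 59.5, 48.7 and 47.7 kb at day 10, against 32.6, 29.1 and 30.2 kb in control cells. None of these survivor lists overlapped the control lists. The log2 change was 1.30 ± 0.11 (SE) in PC3 at day 10 (limma, adjusted p = 1.6e-08), 0.34 at day 1 (adjusted p = 0.085), and 0.75 and 0.67 in MDA-MB-231 at days 1 and 10. This end, chr11:132076152-135076151, holds 11 protein-coding genes.

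The end of 3p holds 3 protein-coding genes and was nearly closed in untreated MDA-MB-231. It had 5.95, 2.65 and 4.87 kb of cover at day 1, 5.97, 4.46 and 5.04 kb at day 10, against 0.948, 0.494 and 0.820 kb in control cells. The log2 changes were 0.71 and 0.82 (adjusted p = 2.1e-04 and 1.4e-05), and with the 50000 highest-area peaks they were -0.03 and 0.02, so the gain lies in low-area peaks. In PC3 the end was open in all states, at 18.0 to 22.8 kb at day 1, 25.0 to 30.5 kb at day 10 and 17.5 to 21.1 kb in control cells, and rose by 0.44 at day 10 (adjusted p = 0.0046).

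The end of 19p holds 110 genes and fell in both lines. Its cover was 423, 395 and 395 kb at day 1, 395, 371 and 346 kb at day 10, against 520, 475 and 528 kb in control cells of MDA-MB-231. PC3 had 172, 180 and 176 kb at day 1, 150.0, 129.9 and 126.4 kb at day 10, against 225, 183 and 217 kb in control cells. No survivor list reached the control range in either line. The changes were -0.32 and -0.45 in MDA-MB-231 cells and -0.23 and -0.60 in PC3 at days 1 and 10, of which the PC3 day 1 change did not pass (adjusted p = 0.085). The end of 16p, with 140 genes, changed by -0.22 and -0.37 in MDA-MB-231 and by -0.45 in PC3 at day 10. The end of 4p changed by -0.32, -0.38 and -0.40 in the same 3 comparisons.

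The ends that rose held fewer genes than those that fell. The ends that rose in MDA-MB-231 held a median of 16 protein-coding genes at both times, those that fell 76.5 at day 1 and 55 at day 10, and the rest 30. In PC3 at day 10 the medians were 10.5 genes at ends that rose, 56 at ends that fell and 34 at the rest. Across the 39 ends, which share lists and scaling, Spearman's correlation of the change with the gene number was -0.69 and -0.69 in MDA-MB-231 cells and -0.36 and -0.47 in PC3 at days 1 and 10, given as a description. Interior windows of like gene number showed the same directions in part. With 50 or more genes, 9 of 15 MDA-MB-231 ends fell at each time, beside 14 and 31 of 72 interior windows, and 7 ends fell in PC3 at day 10 beside 30 interior windows. With under 20 genes, 4 of 12 MDA-MB-231 ends rose at day 1 and 5 at day 10, beside 146 and 232 of 556 interior windows, and in PC3 at day 10, 4 ends rose and 1 fell, beside 21.2% and 22.1% of the interior windows. With 20 to 49 genes, 3 of 12 MDA-MB-231 ends fell at day 1 and 8 at day 10, beside 27 and 42 of 221 interior windows. In this class 1 end rose at each time in MDA-MB-231, beside 27 and 44 interior windows. For PC3 at day 10, 5 of the 12 ends fell and 0 rose, beside 71 and 44 interior windows. The remaining ends of these classes did not pass, and PC3 at day 1 had no end called. These gene number classes were set after the data had been seen, and no test of ends against interior windows was made.

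**Figure D3:**
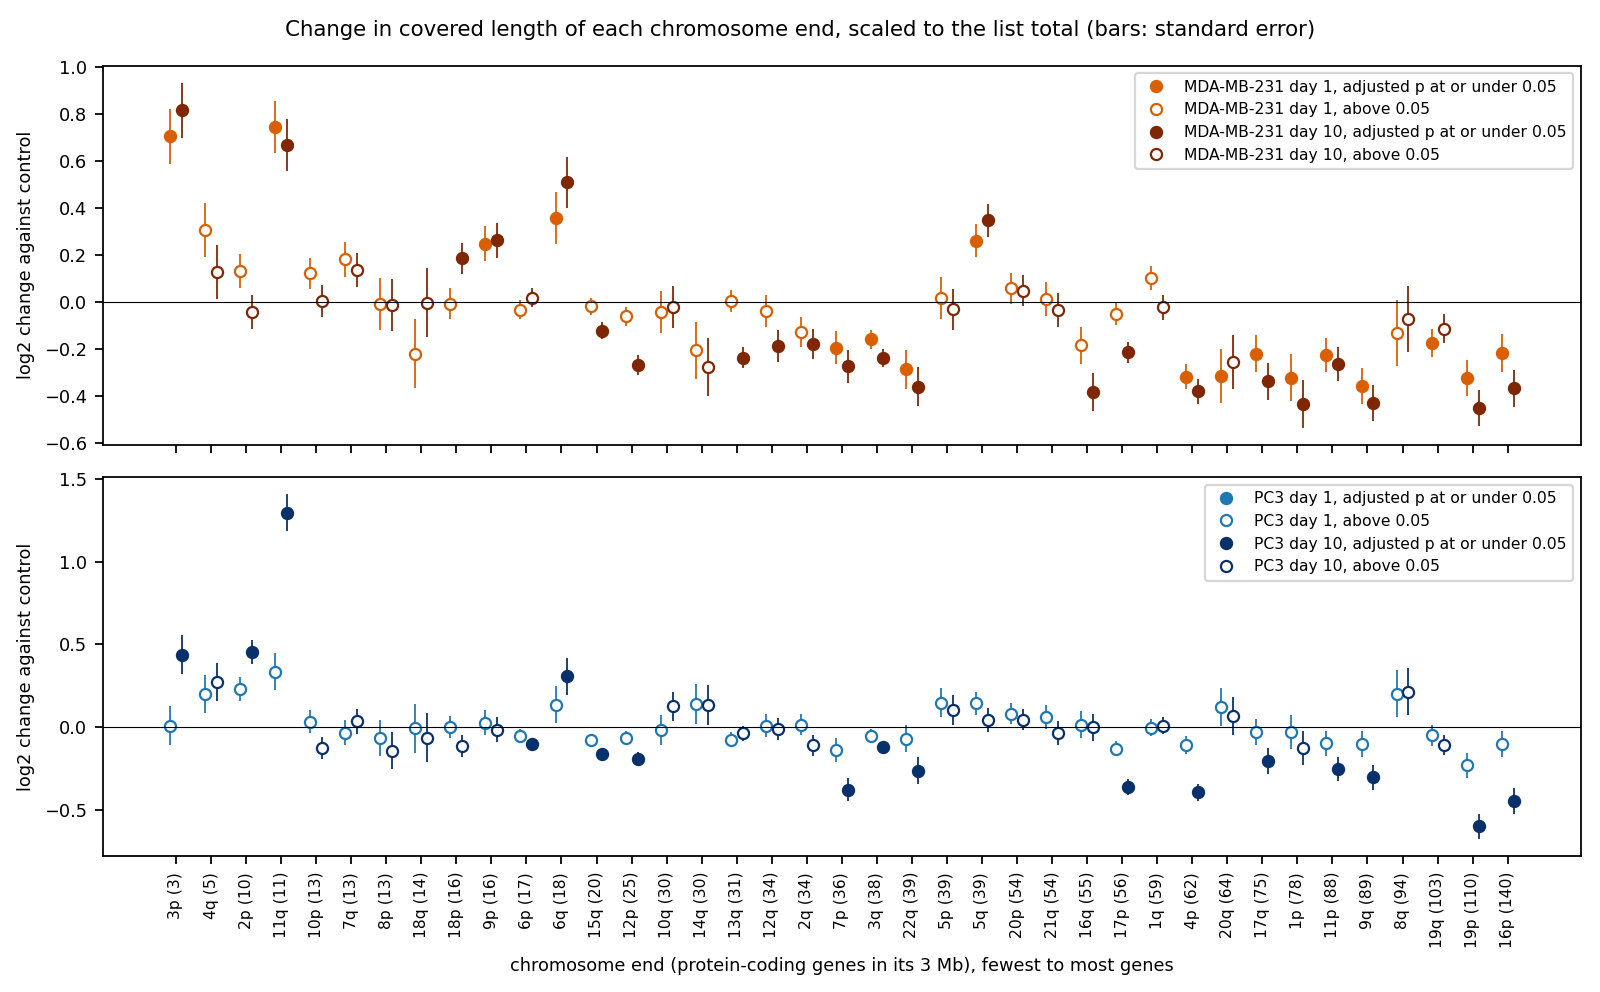
Log2 change in scaled covered length of each of 39 chromosome ends against control, ordered from fewest to most protein-coding genes, with the number of genes in brackets and the standard error as bars, for MDA-MB-231 (top) and PC3 (bottom) at days 1 and 10. At day 10, points for gene-poor ends such as 3p and 11q lie above 0 and those for gene-rich ends such as 16p and 19p lie below it.

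Single regions were gained more often than lost. A region of a line was counted as gained when it had a peak in all 3 survivor lists and in none of the 3 control lists, and as lost in the reverse case. No test was made of single regions. Of 9119 subtelomeric regions in MDA-MB-231, 639 were gained at day 1 (7.01%, beside 7.87% of all autosomal regions) and 145 lost (1.59%, beside 0.681%), and at day 10, 614 were gained (6.73%, beside 10%) and 177 lost (1.94%, beside 0.9%). Of 8852 in PC3, 390 were gained at day 1 (4.41%, beside 4.31%) and 31 lost (0.35%, beside 0.402%), and at day 10, 783 were gained (8.85%, beside 10.5%) and 121 lost (1.37%, beside 1.33%). Leaving out a list raises these counts, since fewer lists must agree. Without the second MDA-MB-231 day 1 list 1172 regions were gained at day 1, and without the second PC3 day 1 list 820, or 609 without the first PC3 control list. Of the lost counts, MDA-MB-231 reached 228 at day 1 without the first day 1 list, 240 without the second control list, and 308 at day 10 without the second control list. PC3 reached 37 to 79 at day 1, with 50 or more when the first day 1 list or the second or the third control list was left out, and 185 to 211 at day 10 without the first day 10 list or the second or the third control list.

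Gained regions lay away from promoters. Of the regions gained, 1.32% at day 1 and 0.855% at day 10 overlapped a promoter window for MDA-MB-231, and 0.840% and 0.673% did for PC3, beside 9.73% and 9.62% of all subtelomeric regions of these lines. Of the lost regions, 2.84% and 4.05% overlapped one for MDA-MB-231, and 16.1% and 15.1% did for PC3. By day 10 the 11q end of PC3 had gained 64 of its 194 regions, 30 of them within OPCML, and the 2p end gained 43 of 200, 14 of them within MYT1L. In MDA-MB-231, the 11q end gained 30 of 152 regions at day 10, 11 of them within OPCML, and the 5q end gained 44 of 166.

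Some regions switched in both lines. Here regions were those merged over all 18 lists, of which 370 were gained in PC3 and 621 in MDA-MB-231 at day 1, and 756 and 597 at day 10. The shared gains numbered 40 at day 1, or 10.8% of the gains in PC3 and 6.44% of those in MDA-MB-231, and 113 at day 10, or 14.9% and 18.9%. As a share of all merged regions they made up 0.342% at day 1 and 0.966% at day 10 at the ends, beside 0.441% and 1.16% over the autosomes. The widest of these at day 10 was chr20:432208-434151, 69 bp from RBCK1, a subunit of the linear ubiquitin ligase. It was covered by 485, 883 and 1801 bp in PC3 and by 442, 1217 and 624 bp in MDA-MB-231 at day 10, and by no peak in any control list. A region within the collagen gene COL23A1, chr5:178330672-178332300, was covered by 723, 484 and 1617 bp in PC3 and 653, 880 and 914 bp in MDA-MB-231 at day 10. At 11q, a region overlapping SPATA19, chr11:133841347-133842849, was covered by 1166, 1302 and 1476 bp in PC3 and 442, 567 and 539 bp in MDA-MB-231 at day 10. Neither of these regions had a peak in a control list.

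Regions lost in both lines numbered 1 at day 1 and 3 at day 10. The day 1 region lay within ATP8B3, a phospholipid flippase gene of 19p, and was covered by 211 to 232 bp in PC3 control lists and by 225 to 430 bp in MDA-MB-231 control lists. The region next to MADCAM1, an endothelial adhesion molecule gene of 19p, at chr19:495364-496292, had no peak in any day 10 list of either line. At day 1 it had none in MDA-MB-231 but was covered by 478, 531 and 481 bp in PC3. It was covered by 543 to 576 bp in PC3 control lists and by 705 to 923 bp in MDA-MB-231 control lists. The other two lay near UTS2R on 17q and near NADK on 1p.

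The widest regions lost in 1 line overlapped genes. For PC3 day 10 survivors a region overlapping GATD1, chr11:776586-778175, had no peak, against 1091, 840 and 1540 bp in control lists, and one overlapping ZMYND11, chr10:134249-135638, had none, against 1386, 1240 and 1090 bp. ZMYND11 encodes a reader of methylated histone. Both were covered in all 9 MDA-MB-231 lists, by 1156 to 1590 bp. In MDA-MB-231 a region overlapping PPDPF on 20q, chr20:63522133-63525397, had no peak at day 1 or day 10, against 1462, 1552 and 3265 bp in control lists.

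For genes, covered length was taken over the gene with 10 kb before and after it, scaled as above, and log2(covered length + 500 bp) was fitted over the 16816 genes with enough cover. Of 1725 genes at the ends, 1442 were tested. In MDA-MB-231, 128 rose at day 1 (8.88%, beside 10.9% of all genes) and 351 fell (24.3%, beside 15.5%), and at day 10, 117 rose (8.11%, beside 11%) and 488 fell (33.8%, beside 16.7%). In PC3, 76 rose at day 1 (5.27%, beside 6.02%) and 97 fell (6.73%, beside 7.24%), and at day 10, 116 rose (8.04%, beside 11.8%) and 581 fell (40.3%, beside 33.1%). Lists did not overlap at 747 genes of the ends in day 1 MDA-MB-231 survivors (45.6% of all genes did not) and 815 at day 10 (46.6%), and at 511 in PC3 at day 1 (37.6%) and 739 at day 10 (51.2%). The median log2 change of genes at the ends was -0.16 and -0.24 in MDA-MB-231 cells and -0.08 and -0.23 in PC3, beside -0.09, -0.11, -0.07 and -0.16 over all genes. Higher calls made up 26.7%, 19.3%, 43.9% and 16.6% of the calls in these 4 comparisons, against 62.8%, 24.4%, 97.8% and 43.7% without scaling and 46.3%, 34.4%, 71.9% and 35.0% with median-of-ratios scaling. In MDA-MB-231 at day 1, 195 genes fell without the third day 1 list, 219 without the first control list, and 82 rose without the second control list. At day 10, 293 fell without the third day 10 list, 315 without the first and 304 without the third control list. PC3 day 1 survivors had 31 to 39 that fell without the first or the third day 1 list or the first or the third control list, and 41 to 47 that rose without the first or the third day 1 list or the second or the third control list.

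**Figure D4:**
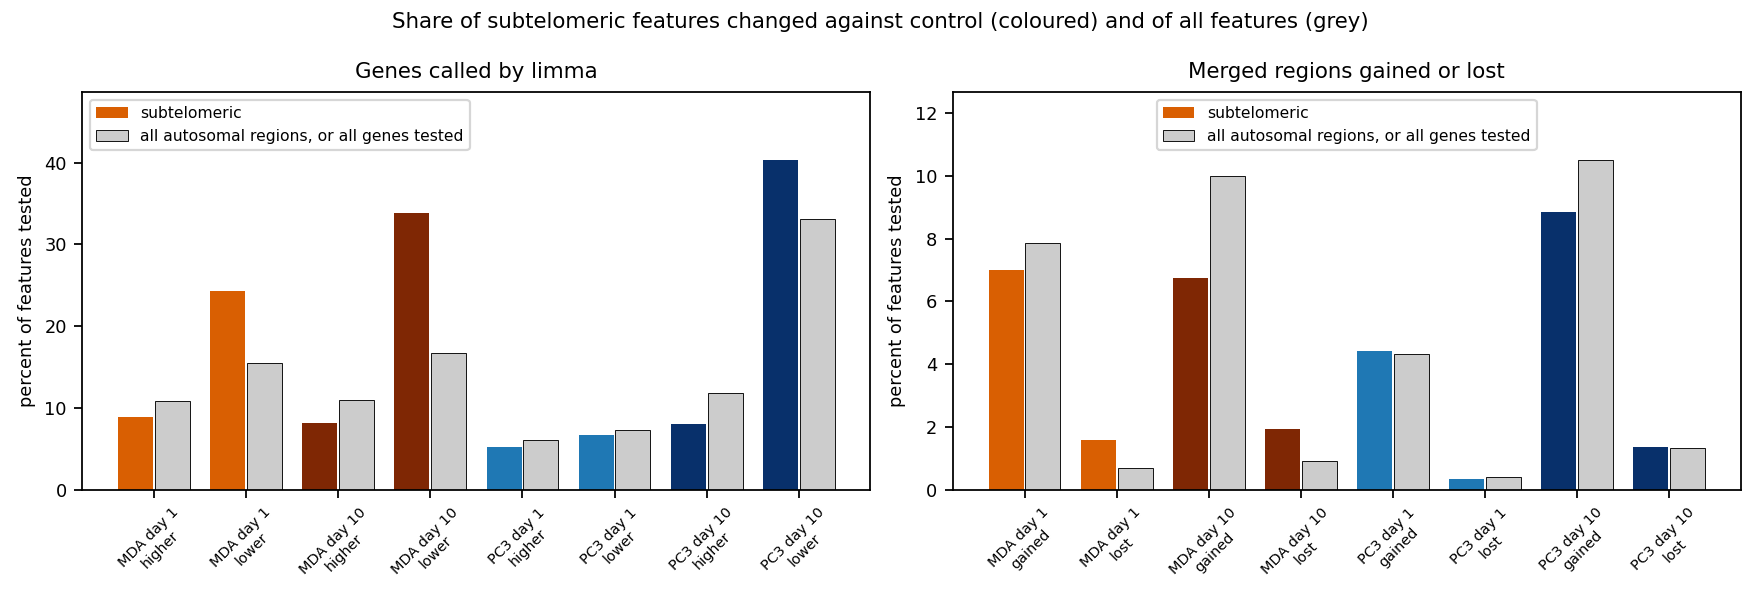
Share of subtelomeric genes called, and of subtelomeric regions gained or lost, against control (coloured), by line and time. Grey bars give the share of all genes or regions. The coloured bars for lower genes in MDA-MB-231 (24.3% and 33.8%) stand above the grey ones (15.5% and 16.7%), and those for lower genes in PC3 at day 1 (6.73%) and gained regions at day 10 do not.

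The genes with the largest rises named at day 10 were OPCML in PC3 and CACNA1B in MDA-MB-231. OPCML, a neural cell adhesion molecule of the IgLON family at chr11:132414981-133532501, had 2.48, 2.05 and 2.57 kb of cover at day 1, 19.6, 12.3 and 23.3 kb at day 10, against 0.731, 0.231 and 0.428 kb in PC3 control cells. In MDA-MB-231 it had 13.9, 12.9 and 13.0 kb at day 1, 17.1, 13.8 and 12.6 kb at day 10, against 6.87, 5.03 and 5.03 kb in control cells. Every survivor list lay above every control list in both lines. On the log2(covered length + 500 bp) scale the rise was 4.28 ± 0.20 (SE) in PC3 at day 10 (limma, adjusted p = 8.3e-10) and 1.29 ± 0.20 in MDA-MB-231 (adjusted p = 1.6e-04).

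CACNA1B, the pore-forming subunit of the N-type calcium channel (chr9:137877782-138124619), rose most in MDA-MB-231. It had 10.4, 3.70 and 7.47 kb at day 1, 13.0, 7.70 and 7.33 kb at day 10, against 0.670, 0.233 and 0.224 kb in control cells, with no overlap. The log2 changes were 3.07 and 3.48 ± 0.32 (adjusted p = 5.7e-06 and 6.5e-07). In PC3 it had 3.50, 1.66 and 2.47 kb at day 1, 2.24, 1.94 and 3.70 kb at day 10, against 0.690, 0.451 and 0.309 kb in control cells, and the changes were 1.6 and 1.65. Of the 24 regions within it in MDA-MB-231, 11 were gained at day 10.

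Other genes that rose in MDA-MB-231 were of several kinds. KIF26A, a kinesin family member at 14q, had 5.44, 4.15 and 4.30 kb at day 1, 8.68, 4.56 and 4.73 kb at day 10, against 0.984, 0.311 and 0.670 kb in control cells (log2 change 2.19 and 2.48). ADARB2, a brain-expressed relative of RNA-editing enzymes at 10p, changed by 2.05 and 2.35, and RIMBP2, a presynaptic scaffold gene at 12q, by 1.79 and 2.06. BTNL9, a butyrophilin-like gene at 5q, was at 0 in all MDA-MB-231 control lists and had 2.29, 2.81 and 2.46 kb at day 1 and 1.33, 1.55 and 1.25 kb at day 10, while in PC3 it was open in all lists at 2.13 to 2.86 kb. TGM3, an epidermal transglutaminase gene at 20p, was at 0 in MDA-MB-231 control lists and had 1.55, 1.42 and 1.48 kb at day 10.

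In PC3 the rises beside OPCML held receptor, oxidase and lipid genes. CHRNA4, a subunit of the nicotinic acetylcholine receptor at 20q, had 2.22, 1.69 and 1.68 kb at day 1, 2.94, 1.84 and 3.56 kb at day 10, against 1.23, 0 and 0 kb in control cells (log2 change 1.64 and 2.08). CYBA, a membrane subunit of the NADPH oxidase at 16q, changed by 1.91 and 2.35, and its neighbour IL17C, a cytokine gene whose 10 kb flanks it shares, by 1.97 and 2.28. With the 50000 highest-area peaks, CYBA and IL17C had no change to report (0.00 at both times), so these rises rest on peaks below that limit. PLD4, a phospholipase D family member at 14q, had 2.64, 3.16 and 3.19 kb at day 1, 3.58, 2.76 and 6.48 kb at day 10, against 0.546, 0.504 and 0.583 kb in control cells. FLT4, the receptor of the lymphatic growth factors, had 7.97, 10.2 and 10.2 kb at day 1, 3.17, 1.76 and 11.3 kb at day 10, against 3.05, 0.805 and 0.885 kb in PC3 control cells. Its rise was 2.41 ± 0.43 at day 1 (adjusted p = 0.0025), when the lists did not overlap, whereas the day 10 lists did.

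Falls in MDA-MB-231 were led by enzymes and a Notch ligand. PTGDS, a prostaglandin D2 synthase gene at 9q, had 2.48, 1.75 and 3.3 kb at day 1, 3.51, 4.01 and 3.08 kb at day 10, against 7.42, 9.16 and 10.0 kb in control cells, a change of -1.66 and -1.21 ± 0.22. NAT8L, the N-acetylaspartate synthase gene at 4p, had 3.31, 2.00 and 2.96 kb at day 1, 2.04, 1.98 and 2.00 kb at day 10, against 5.71, 7.80 and 8.92 kb in control cells, a change of -1.29 and -1.65. JAG2, a Notch ligand, and NUDT14, a nucleoside sugar hydrolase, are neighbours at 14q whose windows overlap, and changed by -1.18 and -1.10 and by -1.33 and -1.19. In PC3, PTGDS and NAT8L had under 1 kb in every list. MMP23B, a metalloprotease gene at 1p, was at 0 in all 3 MDA-MB-231 day 10 lists, against 1.36, 0.565 and 1.91 kb in control lists.

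Falls in PC3 came mostly at day 10. PDGFA (chr7:497258-520700), whose promoter is shown above, had 1.5, 1.34 and 1.07 kb at day 1, 0.472, 0.383 and 0.331 kb at day 10, against 2.00, 2.47 and 1.97 kb in control cells. The changes were -0.56 and -1.56 ± 0.12 (limma, adjusted p = 0.0092 and 1.6e-07), and in MDA-MB-231 they were -0.47 and -0.42. GAMT, which makes creatine, changed by -1.52, RNF4, a ubiquitin ligase for SUMO-modified proteins, by -1.54, and SAMD11 by -1.66, all at day 10. ZNF587B was at 0 in all PC3 day 10 lists, against 1.25, 1.14 and 0.691 kb in control lists. TMEM121, a membrane protein gene at 14q, fell in all 4 comparisons: it had 2.01, 2.5 and 2.53 kb at day 1, 2.47, 2.2 and 2.3 kb at day 10, against 5.45, 4.29 and 4.69 kb in PC3 control cells. Its changes were -0.91 and -1.15 in MDA-MB-231 cells and -0.90 and -0.91 in PC3. MED16, a subunit of the Mediator complex at 19p, also fell in all 4, by 0.55, 0.53, 0.65 and 0.97.

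**Figure D5:**
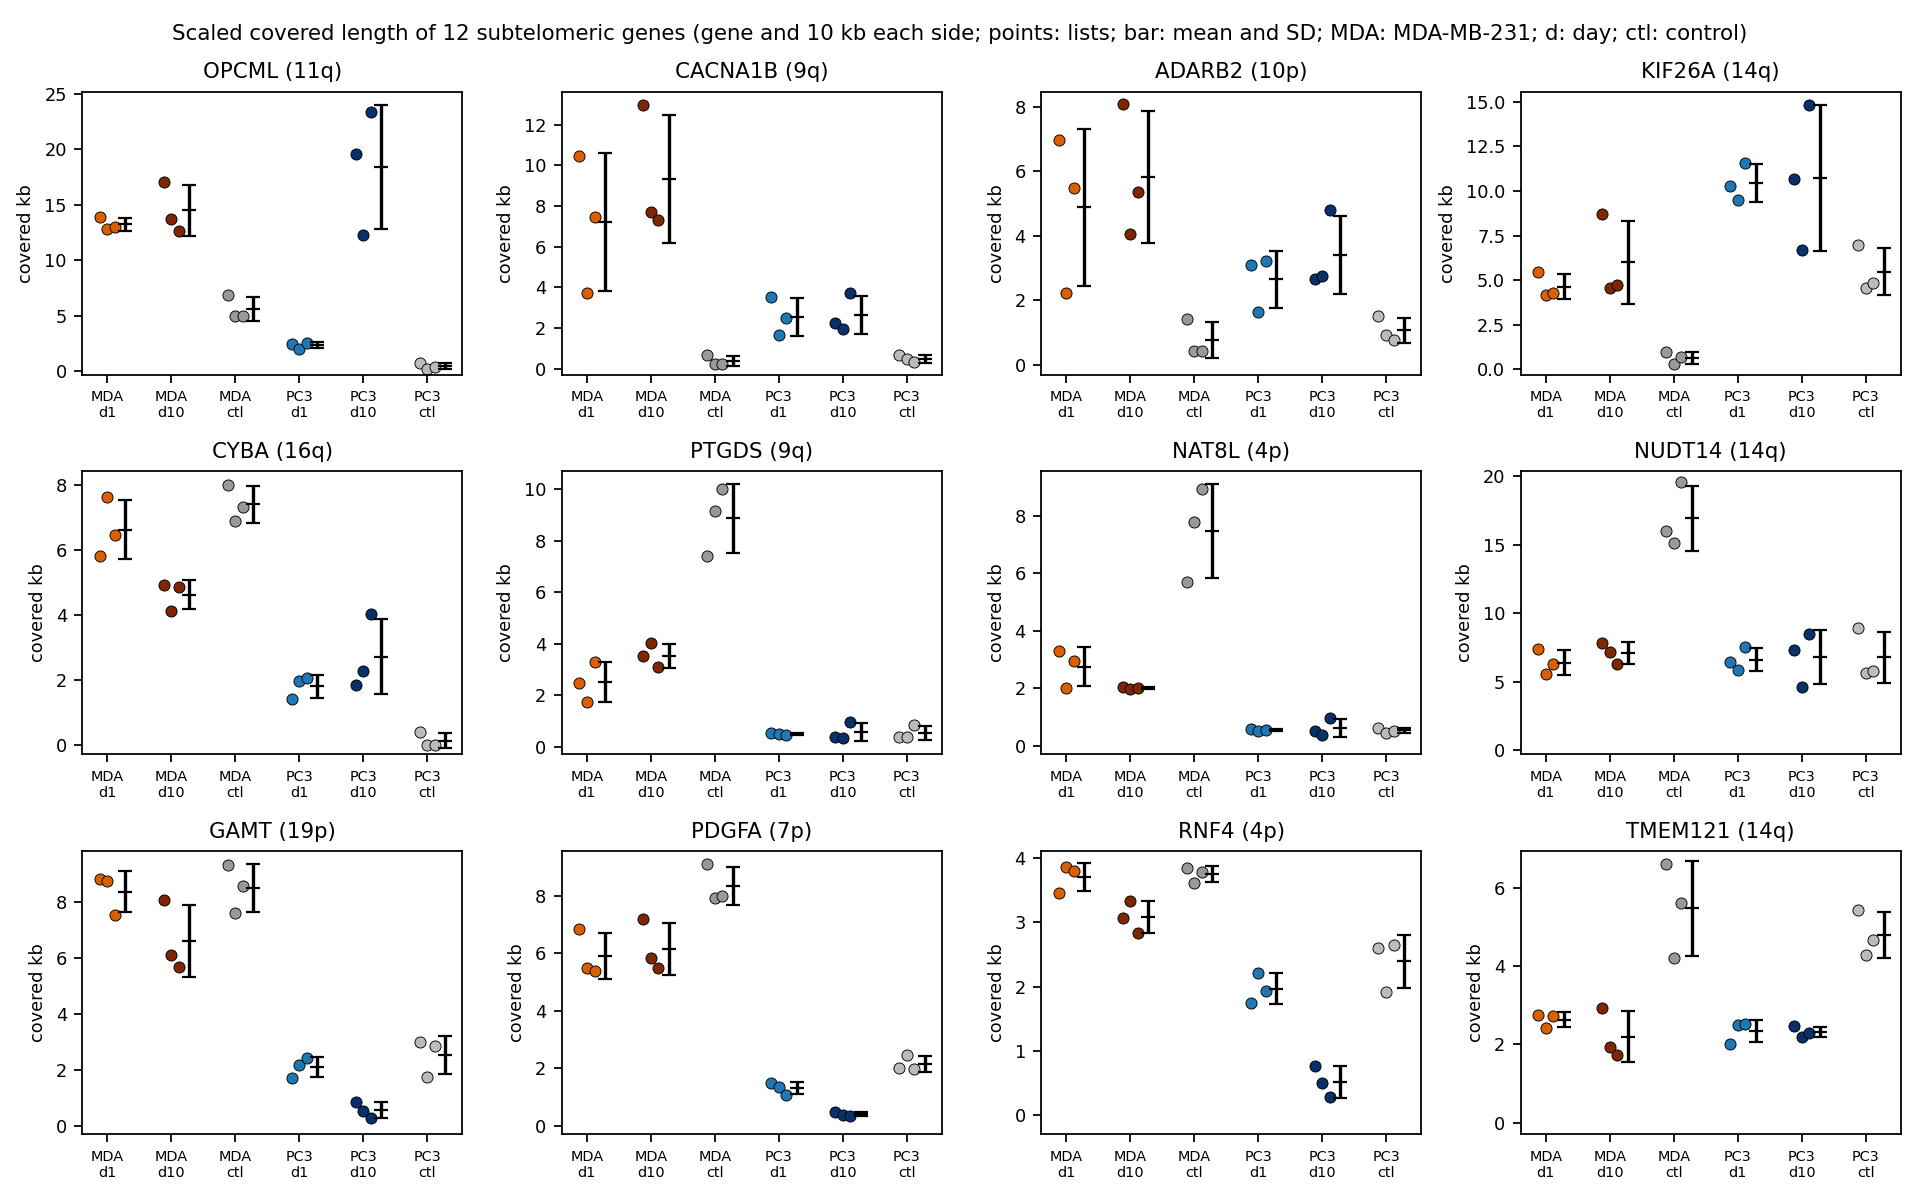
Scaled covered length in kb of 12 subtelomeric genes with 10 kb on each side, with a point per list and the group mean and SD, in the order day 1, day 10 and control for each line. OPCML in PC3 lies between 12.3 and 23.3 kb at day 10 and at or below 0.731 kb in control cells.

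Chosen lists of genes were counted by function, in the order MDA-MB-231 days 1 and 10, then PC3. The lists were chosen with earlier results of these data known, so their counts are a description only. The neuronal list holds OPCML, CACNA1B, ADARB2 and CHRNA4, already named above for their rises. Of all genes tested, 10.9%, 11%, 6.02% and 11.8% rose and 15.5%, 16.7%, 7.24% and 33.1% fell in these 4 comparisons, and each list is read beside these shares. Of 20 tested genes for neuronal channels, receptors and adhesion molecules, 8 rose and 2 fell in MDA-MB-231 at both times, 4 rose and 1 fell in PC3 at day 1, and 8 rose and 4 fell at day 10. MYT1L, a neuronal transcription factor gene at 2p, had 6.94, 4.76 and 5.22 kb at day 1, 9.85, 7.42 and 8.80 kb at day 10, against 2.99, 1.62 and 2.09 kb in PC3 control cells (log2 change 1.18 and 1.77). PTPRN2, a receptor-like phosphatase gene of secretory vesicles at 7q, had 18.1, 10.1 and 13.7 kb at day 1, 29.4, 17.9 and 14.7 kb at day 10, and 5.76, 4.55 and 5.56 kb in MDA-MB-231 control cells. Other genes of the list fell. GRIN1, the obligatory NMDA receptor subunit at 9q, had 2.10, 4.14 and 3.51 kb at day 10 and 7.74, 6.33 and 6.48 kb in PC3 control cells (-1.01), and HCN2, a pacemaker channel gene at 19p, changed by -0.61 and -0.91 in MDA-MB-231 and -0.67 in PC3 at day 10. The list's median change was 0.45 and 0.13 in MDA-MB-231 cells and 0.27 and 0.47 in PC3. Under the limit of 50000 peaks 4, 4, 2 and 5 of 19 rose, and the medians were 0.00, -0.034, 0.0073 and 0.23.

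Genes of mitosis and nuclear organisation were called only lower. Of 22 tested, MDA-MB-231 had 5 that fell at day 1 and 12 that fell at day 10, and PC3 had 1 and 10, beside 15.5%, 16.7%, 7.24% and 33.1% of all genes. None (0) rose by limma in any comparison, also at an unadjusted p under 0.05. TACC3, a spindle protein gene at 4p, had 5.12, 5.02 and 4.77 kb at day 10 and 7.57, 6.96 and 7.44 kb in PC3 control cells (-0.52), and FOXM1, a transcription factor of the cell cycle at 12p, changed by -0.45 in MDA-MB-231 and -0.50 in PC3 at day 10. LMNB2, a nuclear lamin gene at 19p, changed by -0.44 and -0.89, and NCAPG2, a condensin subunit gene at 7q, by -0.44 and -0.63. Without scaling 0, 9, 0 and 6 of the 22 fell in the same 4 comparisons, and with median-of-ratios scaling 0, 6, 0 and 7. With the 50000 highest-area peaks 1, 0, 1 and 8 fell, and 1 rose at day 1 in each line.

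Of 18 DNA repair and telomere maintenance genes, 6 fell and 1 rose in MDA-MB-231 at day 1 and 8 fell at day 10, and 2 and 10 fell in PC3. RPA1, the large subunit of the single-strand DNA-binding protein RPA at 17p, fell in all 4 comparisons. It had 0.830, 0.787 and 0.815 kb at day 1, 0.583, 0.728 and 0.691 kb at day 10, against 1.55, 0.931 and 1.28 kb in PC3 control cells, and changed by -0.41 and -0.66 in MDA-MB-231 cells and -0.41 and -0.58 in PC3. RTEL1, a helicase gene of telomere replication at 20q, passed in none of the 4. Of all genes, 15.5%, 16.7%, 7.24% and 33.1% fell. Without scaling 1, 5, 0 and 5 of the 18 fell, and with the 50000 highest-area peaks 0, 0, 0 and 9 of 17. The median change of the repair list was -0.22 and -0.32 in MDA-MB-231 cells and -0.09 and -0.29 in PC3, and in PC3 at day 1 it was 0.15 without scaling.

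Housekeeping genes at the ends fell most in PC3 at day 10. Of 18 tested, 5 fell at each time in MDA-MB-231, 0 in PC3 at day 1 by limma (7 at an unadjusted p under 0.05) and 14 at day 10, beside the same shares of all genes. Without scaling 0, 2, 0 and 9 fell, under median-of-ratios scaling 1, 0, 0 and 10, and with the 50000 highest-area peaks 0, 1, 2 and 11. POLR2E, a subunit shared by the RNA polymerases at 19p, had 4.16, 3.93 and 3.84 kb at day 10 and 6.67, 6.43 and 7.19 kb in PC3 control cells, with no overlap (-0.70). Of 18 innate immune genes, 3 fell in MDA-MB-231 at day 1, 7 fell and 1 rose at day 10, 3 rose in PC3 at day 1, and 3 rose and 3 fell at day 10. The PC3 rises at both times were IRF4 and the neighbours CYBA and IL17C, whose windows overlap, so they are not independent. The 7 that fell included IFITM1, IFITM2 and IFITM3, genes of 1 family. Without scaling the falls were 0, 2, 0 and 0 and the rises 0, 1, 6 and 5. Median-of-ratios scaling gave 1, 1, 0 and 0 falls and 0, 1, 3 and 4 rises. With the 50000 highest-area peaks 0, 3, 0 and 1 fell and 0 rose. ISG15, an interferon-induced ubiquitin-like protein at 1p, fell by 0.50 in MDA-MB-231 at day 1 and by 0.38 in PC3 at day 10. The inflammasome sensor gene NLRP3 rose by 0.85 in MDA-MB-231 at day 10.

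The imprinted cluster of 11p separated the lines rather than the states. All 9 of its tested genes were lower in PC3 than in MDA-MB-231 (median log2 difference -1.59). Over all genes tested at the ends, 211 were higher in PC3 (14.6%, beside 24.8% of all genes) and 1021 lower (70.8%, beside 55.5%). KCNQ1, a potassium channel gene, had 4.96 to 6.80 kb at day 1, 5.18 to 6.88 kb at day 10 and 6.00 to 6.84 kb in control cells of PC3, against 14.5 to 16.9, 13.8 to 14.7 and 11.4 to 13.3 kb in MDA-MB-231. Against control, 1 of the 9 rose and 2 fell in MDA-MB-231 at day 1, 2 fell at day 10, and 0 and 1 fell in PC3.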

How the data were processed

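Per the labels, ATAC-seq libraries were made from 54 samples, 3 experimental replicates of each of 3 biological replicates in 6 groups. Per the submitters' processing notes, the tools were Bowtie2 (version 2.3.5.1), SAMtools (1.6), Genrich (0.6.2), FastQC (0.12.1), R (4.4.1) and Picard, and the build was GRCh38, also written hg38. The sources used here do not give how the technical parts were joined into 1 list. The 18 deposited narrowPeak lists hold, per peak, a score in column 7, read from its values as the peak area, and a deposited -log10 p-value in column 8. Both are the authors' values, and areas served only for ranking the peaks of a list. Depth is unknown and precision rests on 3 lists per group. Nothing in the labels says whether biological replicates were separate cultures, so p-values measure the spread between these lists.

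Members and gene lists were chosen with earlier results of these data known. Genes were named by size of change among those called by limma whose lists did not overlap (6 rises and 6 falls per line and time), plus members of the fixed gene lists, and regions by width; 1 such gene, 1 such region and 2 promoters are not reported here. Overlap needed 1 bp. Covered length was scaled to the mean list total. Windows needed 5000 bp and genes 500 bp in at least 3 lists. The fits used limma 3.58.1 (trend, all 18 lists, Benjamini-Hochberg adjusted p of 0.05) in R 4.3.3. Two-sided exact permutation tests compared group values in Python 3.11.15 with numpy 2.4.6, scipy 1.17.1 and pandas 2.3.3, over both lines, since 20 relabellings of 1 line cannot give a p below 0.1. Figures were drawn with matplotlib 3.10.9. Scripts were tested on simulated data. Gene positions and promoters came from RefSeq (GRCh38.p14). Alternatives were other distances, peak subsets, scalings, pseudocounts and filters, a replicate block and leaving out each list. Replicate numbers paired the lists by correlation of their deviations (all pairs over 0.1) for MDA-MB-231 day 1 and control (0.389, 0.235 and 0.193), but not for MDA-MB-231 day 10 and control or for PC3 survivors and control. Days 10 and 1 were also paired by this limit in MDA-MB-231 (0.419, 0.310 and 0.197) and PC3 (0.345, 0.132 and 0.216). The main tests did not use the pairing.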

Additional observations from a re-analysis of the deposited data

Results flagged for a closer look

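The values here are the change against control in PC3 minus the change in MDA-MB-231, on the log2 scale of scaled covered length, and each was listed because limma's test of that difference passed Benjamini-Hochberg adjustment over all windows or genes. The cause of these differences was not tested.

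At day 1, 1 end differed, 3p (-0.70, adjusted p = 0.024): it rose in MDA-MB-231 and did not pass in PC3. At day 10, 7 ends differed, with adjusted p from 0.0018 to 0.047. The change was more positive in PC3 at 11q (0.63), 2p (0.49), 16q (0.38) and 13q (0.20), and more positive in MDA-MB-231 at 5q (-0.31), 18p (-0.30) and 9p (-0.28).

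Of the genes reported under the naming rule, 10 differed at day 1. The change was more positive in PC3 for CYBA (2.07), IL17C (1.86), CHRNA4 (1.66), JAG2 (1.65), PTGDS (1.61), NUDT14 (1.32), NAT8L (1.31) and TEX19 (0.83). It was more positive in MDA-MB-231 for BTNL9 (-2.51) and RIMBP2 (-1.61). PTGDS and NAT8L had under 1 kb of cover in every PC3 list, so their difference is the fall in MDA-MB-231.

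At day 10, 24 differed. The change was more positive in PC3 for IL17C (3.01), OPCML (2.99), CYBA (2.97), CHRNA4 (2.25), MMP23B (2.07), NAT8L (1.73), SPATA19 (1.72), PLD4 (1.61), JAG2 (1.37), PTGDS (1.22), NUDT14 (1.19) and TEX19 (0.81). It was more positive in MDA-MB-231 for SCART1 (-2.12), BTNL9 (-1.85), CACNA1B (-1.84), LOC105375947 (-1.76), KIF26A (-1.61), RIMBP2 (-1.44), RNF4 (-1.29), ZNF587B (-1.25), GAMT (-1.17), PDGFA (-1.14), SAMD11 (-0.81) and ZNF555 (-0.67). BTNL9 was at 0 in all MDA-MB-231 control lists, MMP23B at 0 in all MDA-MB-231 day 10 lists and ZNF587B at 0 in all PC3 day 10 lists, so those values depend on the 500 bp added before the logarithm. The CHRNA4 values of both times also do, as only the first PC3 control list had cover there. Its PC3 change at day 10 ranged from 1.78 to 2.68 when a list was left out. OPCML rose in both lines, from a higher level in MDA-MB-231.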

How the results depend on the processing

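Differences below are in the order peak number, covered length (both log2), shares (points) and ratio to the neighbouring band (log2). With the 50000 highest-area peaks per list, peak number was -0.046 at day 10 against control and -0.085 against day 1, covered length -0.021 and share of peaks 0.14 at day 1, and open promoters -1.78 at day 10 against day 1. Ends higher were 2 and 3 in MDA-MB-231 and 2 in PC3 at day 1, and ends lower 0 in MDA-MB-231 and 3 in PC3 at day 1. Genes higher were 52, 45, 32 and 70 and lower 69, 103, 53 and 380 (MDA-MB-231 days 1 and 10, then PC3). Regions gained were 200, 159, 98 and 154, and regions lost 52 and 211 in PC3. With the upper 50% by area, peak number at day 10 against day 1 was -0.014, gained regions were 331, 270, 192 and 382, and lost regions 25 and 57 in MDA-MB-231 and 79 in PC3 at day 10.

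At 1 Mb, peak number at day 10 against day 1 was -0.019, and these passed: covered length -0.20 from day 1 to day 10, share of cover -0.37 at day 10, and ratio -0.089 and -0.146. At 5 Mb, covered length at day 10 was 0.027. The promoter split, chosen after seeing the data, gave for promoter peaks -0.045 in peak number against control and -0.052 against day 1 at day 10, and -0.21, -0.47 and -0.25 in covered length for day 1, day 10 and their difference. Shares of peaks were -0.16, -0.30 and -0.14, shares of cover -0.55, -0.86 and -0.31, and ratios -0.086 at day 10 and -0.047 against day 1. For other peaks, covered length at day 10 was 0.10.

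With no scaling, ends lower were 0 and 8 in MDA-MB-231 and 1 in PC3 at day 10, and higher 18 and 12 in PC3. Genes lower were 84, 303, 4 and 209, and 178 were higher in PC3 at day 1. In PC3 at day 10, 12p (0.037), 15q (0.070), 17q (0.040), 3q (0.12) and 6p (0.13) changed sign. Median-of-ratios scaling gave 172, 217, 38 and 335 lower genes and 180 higher in PC3 at day 10. The 50000 peaks also reversed 3p at day 1 (-0.034), 18p at day 10 (-0.043) and TEX19 at day 10 (0.0098) in MDA-MB-231. Of 57 end calls, 14 held under every alternative run, and 23 of 47 gene calls.

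The replicate block gave 10 ends higher in MDA-MB-231 and 2 higher and 2 lower in PC3 at day 1, and 168 lower genes in PC3 at day 1; no end or gene call named here was lost with it. Peak number at day 10 against day 1 ranged from -0.061 to 0.074 and covered length at day 10 from -0.065 to 0.033 when 1 list was left out. Ranges of the counts were 2 to 6, 5 to 6, 0 to 1 and 3 to 7 higher ends, 4 to 12, 14 to 19, 0 to 1 and 9 to 13 lower ends, 82 to 124, 87 to 111, 41 to 86 and 79 to 135 higher genes, 195 to 294, 293 to 486, 31 to 96 and 467 to 611 lower genes, 652 to 1172, 620 to 859, 428 to 820 and 837 to 1089 regions gained, and 147 to 240, 181 to 308, 37 to 79 and 130 to 211 lost. Ratios ranged from -0.100 to -0.065 at day 1 and from -0.156 to -0.115 at day 10. The cause of these shifts was not tested.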

Other observations

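Of 6 tested alpha-globin and haematopoietic granule genes at the ends, 1 rose in MDA-MB-231 at day 1, 1 fell at day 10, and 0 changed at day 1 and 2 fell at day 10 in PC3 by limma, beside 10.9% of all genes that rose in MDA-MB-231 at day 1 and 16.7% and 33.1% that fell at day 10 in MDA-MB-231 and PC3. PC3 at day 1 also had 0 at an unadjusted p under 0.05. Of 2 tested genes linked to telomere position effects, 1 rose and 1 fell in MDA-MB-231 at day 1 and 1 fell in PC3 at day 10. Of all genes, 10.9% rose and 15.5% fell in the former comparison and 33.1% fell in the latter. These calls are not separate from those above. The gene that rose is the 1 rise of the repair list, and the falls are those of ISG15 in the innate immune list. The transiently open regions of both lines at day 1 included chr10:1101703-1103192 within WDR37. It was covered by 271, 471 and 279 bp in PC3 and by 1409, 1313 and 1449 bp in MDA-MB-231 at day 1, in 1 of 6 lists at day 10, and in no control list.

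The end of 8p stood apart between the lines: it had 0.956 to 2.86 kb of scaled cover in the 9 PC3 lists and 12.1 to 16.6 kb in the 9 MDA-MB-231 lists. Of all merged subtelomeric regions with a peak in any list of a group, 67.3% at day 1, 65.5% at day 10 and 72.4% in control cells were in all 3 lists in PC3, and 70.6%, 72.3% and 73.7% in MDA-MB-231.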
